A study of Mus musculus with 7 samples.

Results

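Cyclic nucleotide phosphodiesterases are the enzymes that break down cAMP and cGMP, and 10 of their genes, Pde1a, Pde1b, Pde2a, Pde4a, Pde4b, Pde4d, Pde7b, Pde8b, Pde9a and Pde10a, were followed in mouse cortex RNA. They are 10 of the 23413 gene symbols in the count files and 10 of the 21 genes that code for catalytic cyclic nucleotide phosphodiesterases. The 10 were chosen by gene name with their CPM (counts scaled to a total of 1e+06 per library) in the ketogenic and control libraries already known, so their difference between the diets is given as a description and no test is drawn from it. Each was read from the files by its symbol, and all 10 passed the filter on low counts, with 201 to 16026 counts per gene and library.

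The study asked what a ketogenic diet (KD) changes in the brain of APP/PS1 mice, a model of the amyloid deposition of Alzheimer's disease. RNA-seq of the cortex was available from 7 APP/PS1 mice, one library per mouse: 4 on a control diet (CD, labelled SD) and 3 on KD. Every mouse carried the APPswe and PSEN1dE9 transgenes of the line B6.Cg-Tg(APPswe,PSEN1dE9)85Dbo/Mmjax, which a mouse prion protein promoter drives, and no library of mice without the transgenes was analysed here. The mice were given either diet at 6 months of age, were housed singly and stayed on it for 7 months, to an age of 13 months. By energy, KD held 90% fat, 10% protein and under 0.5% carbohydrate, and CD held 16% fat, 10% protein and 74% carbohydrate. The labels do not give the sex of each mouse, and the study used males and females. Library totals ran from 22272883 to 36614954 counts.

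Neurons raise cAMP through adenylyl cyclases and cGMP through guanylyl cyclases, and phosphodiesterases are the main route by which both signals end. The families differ in substrate and control: PDE1 is switched on by calcium and calmodulin and takes both nucleotides, PDE2 takes both and is stimulated by cGMP, PDE4, PDE7 and PDE8 take cAMP, PDE9 takes cGMP, and PDE10 takes both and is best known from the striatum. Because cAMP acts through protein kinase A on the transcription factor CREB, inhibitors of PDE4 such as rolipram are used to prolong this signal in studies of long-term potentiation. A bulk library averages all cells of the piece of tissue, so fewer cells of a type and less RNA per cell cannot be told apart in what follows.

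CREB itself binds the cAMP response element, whose core is TGACGT, and some phosphodiesterase genes are known cAMP-responsive genes. The core was therefore searched on both strands of the RefSeq promoter windows, which run from 250 bases before to 50 bases after a transcript start in the build GRCm38.p6, the same assembly as mm10. Windows matched 9 of the 10 genes, 28 windows in all, and 2 of the 28 (7.14%) held the core, against 7.51% of all 32851 windows. The full palindrome TGACGTCA was in 0 of the 28 and in 1.79% of all windows. A match describes these letters and is no evidence of binding. Both matches lay upstream of starts inside PDE4 genes, and they are shown because Pde4a had the largest and Pde4b one of the smallest differences between the diets. The first is the 250 bases before a Pde4a start on the plus strand (chr9:21183851-21184100, inside the gene and outside its annotated exons, 18387 bases from the gene's 5′ end). Its match begins 51 bases before that start. The second is 30 bases around the Pde4b match on the plus strand (chr4:102421508-102421537), which begins 35 bases before a start that lies 334012 bases from the gene's 5′ end. Of the 250 bases before that start, 37 are annotated exon of Pde4b, and whether they hold the match was not determined. The third is the stretch before the 5′ start of Pde2a (chr7:101421441-101421690, plus strand), the gene with the most reads per kilobase here, which held no match. Capitals mark the core, here read on the other strand as ACGTCA.
Pde4a: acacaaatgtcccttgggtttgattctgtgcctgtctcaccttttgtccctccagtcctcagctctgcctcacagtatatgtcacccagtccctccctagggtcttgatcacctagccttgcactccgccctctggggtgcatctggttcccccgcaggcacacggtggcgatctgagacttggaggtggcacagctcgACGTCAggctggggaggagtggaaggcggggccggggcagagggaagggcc
Pde4b: tgatttggctgcACGTCAattttctcatct
Pde2a: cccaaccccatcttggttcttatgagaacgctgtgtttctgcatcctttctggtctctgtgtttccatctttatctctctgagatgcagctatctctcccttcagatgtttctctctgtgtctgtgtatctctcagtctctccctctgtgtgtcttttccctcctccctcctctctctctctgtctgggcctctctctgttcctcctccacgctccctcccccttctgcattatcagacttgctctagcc

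CD replicate 4 and KD replicate 3 stood apart from the other 5 and hold many of the extreme values below. On the first principal component of all tested genes, 33.9% of the variance, CD replicate 4 was at 42.1 and KD replicate 3 at 49.5, with the others between -27.0 and 3.1. CD replicate 4 had the highest summed CPM of 4 olfactory bulb markers, 56.1 against 2.52 to 15.6 in the others, with Eomes, a marker of bulb projection neurons, at 7.76 CPM. KD replicate 3 had 24.6 CPM summed over 6 ventral forebrain markers against 0.655 to 1.24 elsewhere. Nearly all of that sum was Lhx9 (10.5 CPM), Gabrq (7.68 CPM) and Calcr (5.84 CPM). Lhx8, Nkx2-1 and Otp were near the floor in that library, at 0.314, 0.224 and 0.0449 CPM. Of the 10 phosphodiesterase genes, 10 had their highest or their lowest CPM in one of these libraries, against 70.7% of all 15881 tested genes. What the tissue of these libraries contributes to each gene was not tested, and results are given with and without them.

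Compared per kilobase of exon, the levels of the 10 genes spanned a wide range in this cortex, with Pde2a and Pde1a at the top and Pde9a and Pde7b at the bottom. Pde2a, the cGMP-stimulated enzyme, had 76.3 ± 8.02 CPM per kilobase (mean ± SD, n = 7 libraries) and Pde1a 68.1 ± 11.1. Pde1b followed at 32.6 ± 4.98, Pde8b at 20.95 ± 3.65, Pde4b at 17.0 ± 1.48, Pde4d at 10.9 ± 1.09 and Pde10a at 8.13 ± 0.937. The lowest were Pde4a at 5.19 ± 1.30, Pde9a at 3.73 ± 1.30 and Pde7b at 2.87 ± 0.965 CPM per kilobase. On this scale Pde2a, Pde1a and Pde1b stood above the cAMP-specific genes of the set, although with the longest transcript as the length Pde4b, at 41.8, was level with Pde1b, at 41.7. This does not extend to all calmodulin-dependent enzymes, since Pde1c, outside the set, was at 0.806 CPM per kilobase of exon. Pde10a, the striatal enzyme, was in the lower part of the order.

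The order was tested between neighbours within libraries with an exact two-sided sign-flip test of the log2 ratio over the 7 libraries, for which 0.0156 is the smallest possible p. The pairs were set by the order in these same libraries, and the p-values measure the spread among libraries, not the choice of exon length. Of 9 neighbouring pairs, 6 differed at an adjusted p under 0.05. Pde1a over Pde1b was the widest of these steps per kilobase of all exons, at a log2 ratio of 1.06 ± 0.26 (SD, n = 7, exact p = 0.0156, adjusted p = 0.0281). Pde2a over Pde1a (0.18 ± 0.22, 6 of 7 libraries, exact p = 0.0938, adjusted p = 0.105), Pde4a over Pde9a (0.50 ± 0.68, exact p = 0.0938, adjusted p = 0.105) and Pde9a over Pde7b (0.41 ± 0.90, exact p = 0.391) did not differ beyond their spread. Exon length matters here. Pde8b over Pde4b was one of the 6, at 0.28 (exact p = 0.0313, adjusted p = 0.0469). With the length of the longest transcript in place of all exons it turned to -0.54. Pde9a over Pde7b turned from 0.41 to -0.04, while the other 7 pairs kept their order. By that length the widest step was Pde4d over Pde10a, at 1.22, beside 1.20 for Pde1a over Pde1b.

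**Figure D1:**
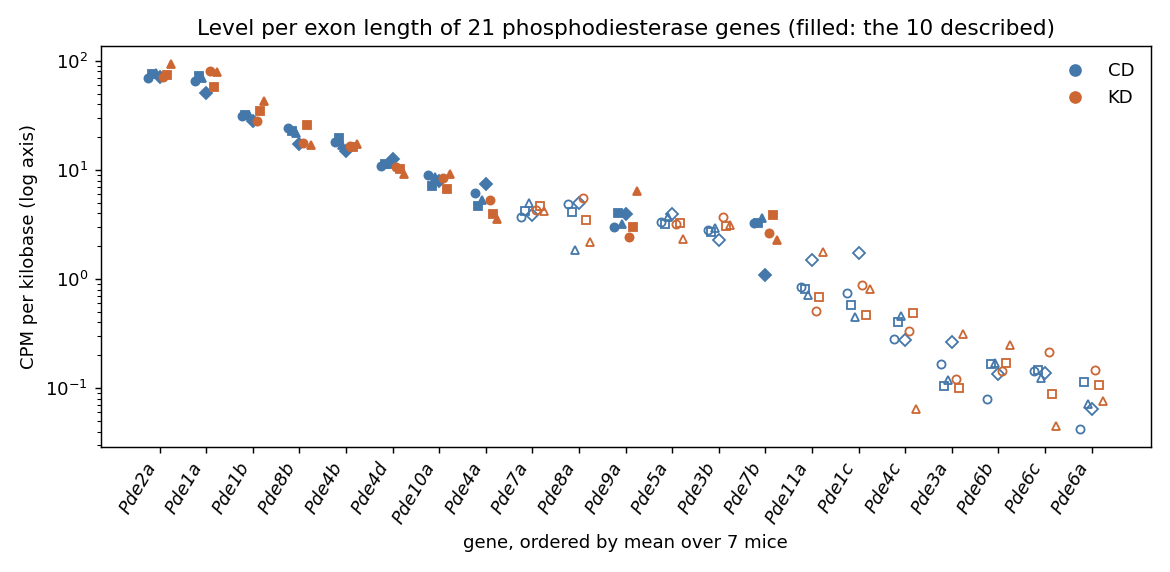
CPM per kilobase of exon (log axis) for the 21 catalytic phosphodiesterase genes, one point per mouse, CD in blue and KD in orange, filled for the 10 genes described and open for the other 11. Pde2a and Pde1a lie highest, with means of 76.3 and 68.1, and the KD and CD points of each gene mostly intermingle.

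The 10 genes held 91.8% to 94.9% of the CPM per kilobase of all 21 phosphodiesterase genes in each library. Pde2a alone held 27.1% to 31.6% and Pde1a 21.7% to 30.8%. By substrate, the PDE1 genes together took 34.5% to 41.8%, the cAMP-specific PDE4, PDE7 and PDE8 genes 18.8% to 27.7%, and the cGMP-specific genes 2.33% to 3.54%. The lowest cAMP-specific share, 18.8%, was that of KD replicate 3, and the other 6 libraries were at 23.9% or more. Among the 11 genes not in the set, the retinal PDE6 genes Pde6a, Pde6b and Pde6c had the lowest levels, each with a mean of 0.159 CPM per kilobase or less.

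Read by diet, the 10 genes divided evenly, with 5 higher and 5 lower in KD, and the largest difference was a lower level of Pde4a. The median log2 fold change of the 10 (KD over CD) was 0.025, against -0.003 over all 15881 genes tested, 49.04% of which were higher in KD. The fitted ratios ran from 0.732 for Pde4a to 1.14 for Pde1b. In edgeR's quasi-likelihood test 0 of the 10 genes reached an adjusted p under 0.05, as did 0 of all genes (0.0%), and DESeq2 and limma-voom also gave 0 genes. At the unadjusted p of 0.01 that the study used as its threshold, 0 of the 10 passed, against 51 of all genes (0.321%). The study reported a larger number of genes at that threshold, also with edgeR and TMM, and did not name its edgeR test. At an unadjusted p under 0.05, 2 of the 10 passed, Pde4a and Pde4d, both lower in KD, against 506 genes (3.19%) in either direction, 242 (1.52%) lower and 264 (1.66%) higher. One of the 10, Pde4d, had no overlap between the diets, against 667 genes (4.2%). Since the genes were picked with this contrast known, nothing is read from these counts.

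Pde1a and Pde1b, whose enzymes couple calcium entry to the breakdown of cAMP and cGMP, had higher means in KD with overlapping values. Pde1a had 396, 435, 415 and 307 CPM in the CD libraries and 487, 344 and 480.0 CPM in the KD libraries, a log2 fold change of 0.17 (SE 0.17). The low values came from CD replicate 4 and KD replicate 2, so each diet had a library below the range of the rest. Pde1b had 167, 172, 173 and 152 CPM in CD and 151, 186 and 230.2 CPM in KD (log2 fold change 0.19, SE 0.14). Its KD values bracketed the CD range, with KD replicate 1 the lowest and KD replicate 3 the highest of all 7, and without KD replicate 3 the log2 fold change was 0.04. The remaining PDE1 gene, Pde1c, is not in the set and had the lower mean in KD, 14.4 against 17.5 CPM (log2 fold change -0.26, SE 0.44), with CD replicate 4 highest at 34.4 CPM.

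Pde2a, abundant in cortical and hippocampal neurons and activated when cGMP binds, was even across the mice. Its CPM was 432, 466, 479 and 438 in CD and 438, 457 and 574 in KD, a log2 fold change of 0.12 (SE 0.11). Only KD replicate 3 lay above the CD range, and without it the log2 fold change was 0.00. Exons of Pde2a share 3955 bases with Gm45837 on the same strand, a gene with no row in the count files, so reads of these genes cannot be separated by position there.

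The PDE4 genes code for the rolipram-sensitive, cAMP-specific enzymes, and all 3 had lower means in KD, Pde4a most and Pde4b least. Pde4a had 47.3, 36.1, 40.6 and 56.4 CPM in CD and 40.4, 30.3 and 27.2 CPM in KD, a log2 fold change of -0.45 (SE 0.18). The diets overlapped, since KD replicate 1 lay above CD replicate 2, and the extremes were CD replicate 4 at the top and KD replicate 3 at the bottom. Pde4d had 131, 137, 137 and 152 CPM in CD against 129, 122 and 110.5 CPM in KD, a log2 fold change of -0.20 (SE 0.09). Its diets did not overlap, and the nearest values were those of CD replicate 1 and KD replicate 1, while CD replicate 4 and KD replicate 3 were the outermost. Pde4b had 192, 206, 179 and 157 CPM in CD and 173, 169.8 and 182 CPM in KD (log2 fold change -0.06, SE 0.11), with every KD value inside the CD range. Without CD replicate 4 and KD replicate 3 together, the log2 fold change was -0.22 for Pde4a, -0.10 for Pde4d and -0.15 for Pde4b.

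Within the reads of the 4 PDE4 genes, Pde4b made up 49.6% ± 4.81 (SD, n = 4) in CD and 53.2% ± 3.38 (SD, n = 3) in KD. The share of Pde4d was 37.7% ± 2.76 and 36.5% ± 1.72, and that of Pde4a 12.2% ± 2.47 and 9.85% ± 1.67. Each of these differences in share was smaller than the SD among the CD libraries. Those of Pde4b and Pde4a were larger than the SD among the KD libraries. Pde4c, the remaining gene of the family, held under 1% of these reads in every library, from 0.112% to 0.833%.

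The remaining cAMP-specific genes, Pde7b and Pde8b, varied among the mice within each diet more than they differed between diets. Pde7b had 41.0, 41.0, 45.2 and 13.5 CPM in CD and 33.0, 48.3 and 28.1 CPM in KD, a log2 fold change of 0.06 (SE 0.39). CD replicate 4 was far below the other CD libraries, and without it the log2 fold change was -0.22, the opposite sign. Pde8b, whose enzyme binds cAMP with high affinity, had 144, 135, 129 and 101 CPM in CD and 103, 151 and 100.4 CPM in KD (log2 fold change -0.10, SE 0.19). For both genes KD replicate 2 had the highest value of all 7 libraries. Pde8b shares 447 exon bases with Gm48420 on the opposite strand, and the strand setting of the counting is not given in the sources used here.

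Pde9a codes for the cGMP-specific enzyme and had the fewest counts. Its CPM was 10.7, 14.4, 11.4 and 14.1 in CD and 8.60, 10.7 and 22.6 in KD, a log2 fold change of 0.14 (SE 0.30). The sign came from KD replicate 3, which was above every other library, and without it the log2 fold change was -0.37. Exons of Pde9a share 157 bases with AC166172.5 and 138 bases with AC166172.6 on the opposite strand, with the same limit as for Pde8b. Pde10a had 115, 91.7, 111 and 102 CPM in CD and 108, 85.8 and 118 CPM in KD (log2 fold change -0.01, SE 0.12). The values of Pde10a overlapped almost fully.

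**Figure D2:**
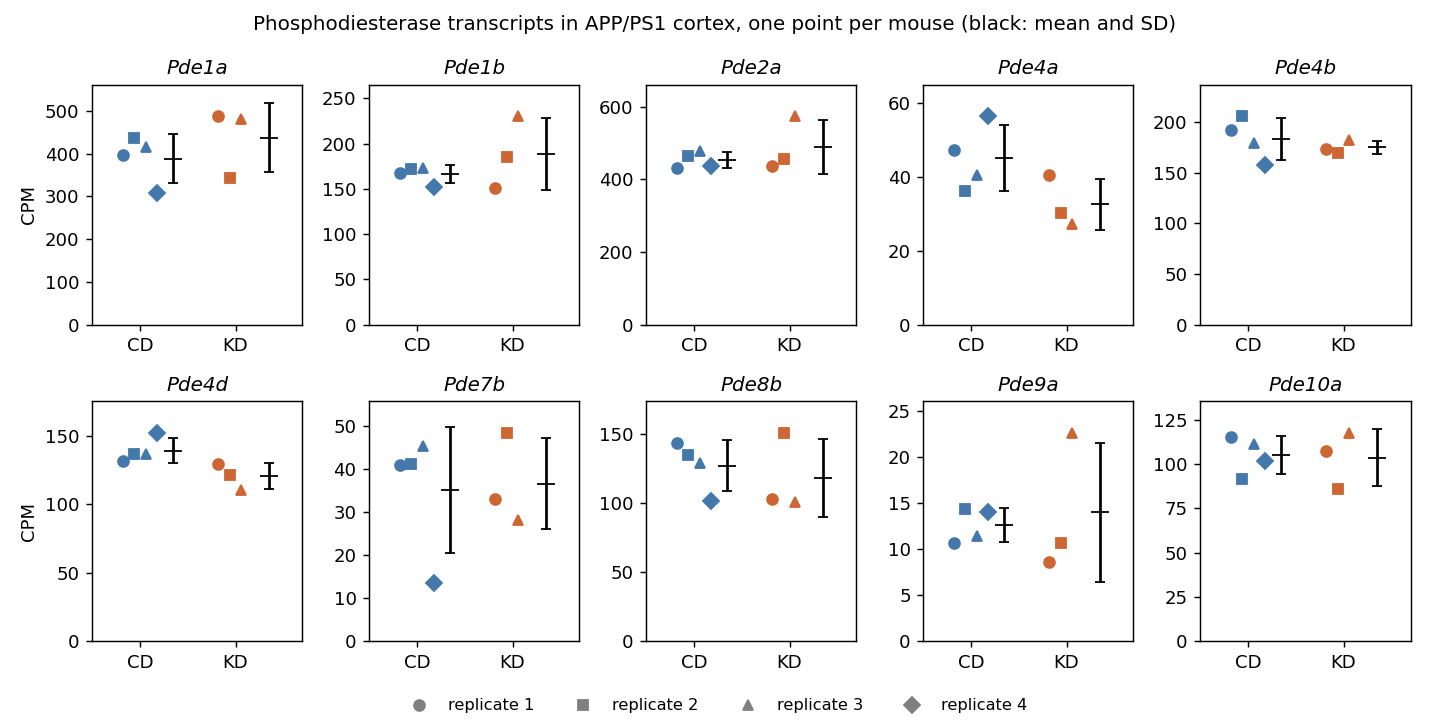
CPM of each of the 10 genes in the 4 CD (blue) and 3 KD (orange) mice, one point per mouse with the marker shape giving the replicate number, and mean and SD in black. The diets overlap in 9 of the 10 genes, CD replicate 4 is far below the other CD mice for Pde7b (13.5 CPM) and KD replicate 3 is above all others for Pde9a (22.6 CPM).

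Leaving out each mouse in turn kept the sign of the difference for Pde1a (0.06 to 0.31), Pde1b (0.04 to 0.33), Pde4a (-0.64 to -0.33) and Pde4d (-0.25 to -0.13), all as log2 fold changes. Pde2a ran from 0.00 to 0.19. The other 5 crossed zero, from -0.14 to 0.01 for Pde4b, -0.22 to 0.23 for Pde7b, -0.33 to 0.02 for Pde8b, -0.37 to 0.39 for Pde9a and -0.10 to 0.10 for Pde10a. Without CD replicate 4 and KD replicate 3 together, 1 of the 10 genes was higher in KD, Pde1a at a log2 fold change of 0.01, and the median of the 10 was -0.09. In that fit 0 of the 10 had an unadjusted p under 0.05.

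**Figure D3:**
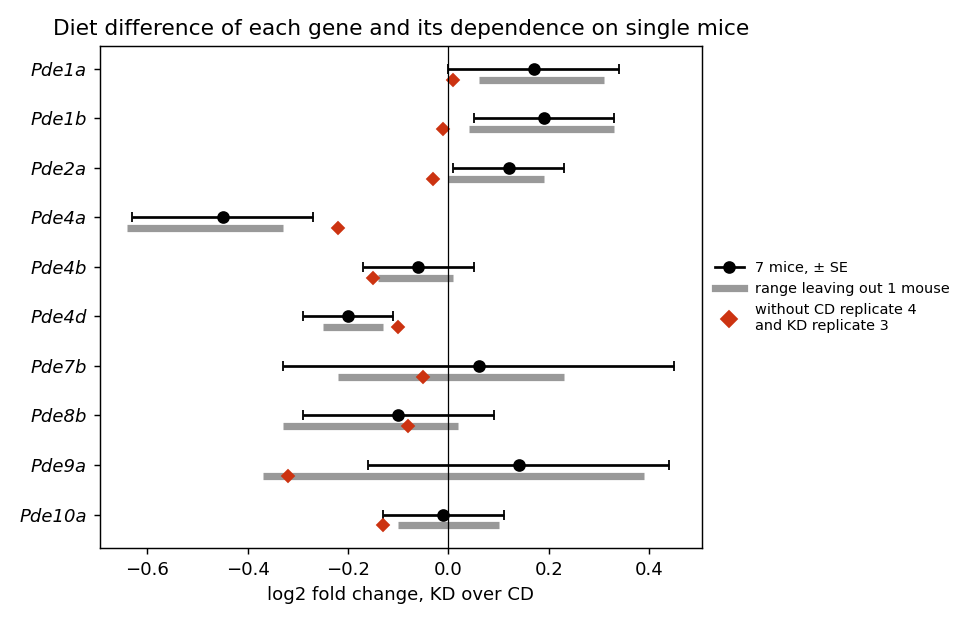
Log2 fold change of KD over CD for each gene: black points with SE bars are the fit to 7 mice, grey bars the range when one mouse is left out, and red diamonds the fit without CD replicate 4 and KD replicate 3. Pde4a and Pde4d lie below 0 in all of these, and the grey bars of Pde4b, Pde7b, Pde8b, Pde9a and Pde10a cross 0.

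Variation among mice of the same diet differed widely among the genes. The SD of log2 CPM within a diet was lowest for Pde4d, at 0.098, and highest for Pde7b, at 0.719, above that of 90.8% of all tested genes. Pde9a was next at 0.477 and Pde8b at 0.295. For comparison, the median over all tested genes was 0.213, and over the 8868 genes with a mean CPM within the range of the set it was 0.148. The highest library exceeded the lowest by 3.59-fold for Pde7b and by 1.31-fold for Pde4b.

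The level of Pde7b across mice moved with genes of the upper cortical layers. The means of 5 marker lists were compared with each of the 10 genes by correlation of log2 CPM over the 7 libraries. The genes and the lists were chosen with earlier results of these data known, so the p-values are no independent test. The 50 relations formed one family, with two-sided p-values from all 5040 pairings of the libraries. Of these 50, 1 passed an adjusted p of 0.05. That relation was Pde7b with the mean of 5 upper-layer genes (Cux1, Cux2, Rasgrf2, Lamp5 and Calb1). Pearson's r was 0.95 (exact permutation p = 0.000198, the smallest these pairings can give, adjusted p = 0.00992). Spearman's rho was 1.0 (exact permutation p = 0.000397, adjusted p = 0.0198). On the log2 scale, the mean of the list ran in the same order as Pde7b. It went from 6.14 in CD replicate 4, through 6.56 in KD replicate 3, to 7.20 in KD replicate 2.

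This relation did not rest on the extreme mice. Without CD replicate 4 and KD replicate 2, those farthest from the median of the list, r was 0.96. It was 0.94 without CD replicate 4 and KD replicate 3, and 0.95 after the mean of each diet was subtracted. By gene, Pde7b had an r of 0.85 with Lamp5, 0.69 with Rasgrf2, 0.52 with Cux2, 0.50 with Calb1 and 0.29 with Cux1. Whether a single gene carried the relation was not tested, since the list was not recomputed without any of its genes. The summed CPM of the list was 391 to 715 in CD and 594 to 834 in KD, 2 of its 5 genes had the higher mean in KD, and no gene was at 0 in any library. The sum did not follow the order of Pde7b. In KD replicate 3 it was 767, above every CD library, while Pde7b was at 28.1 CPM. The list split in that mouse: Cux2 (26.3 CPM), Cux1 (49.7 CPM) and Lamp5 (64.1 CPM) were at their lowest and Calb1 (355 CPM) at its highest. Rasgrf2 was at 272 CPM there, below KD replicate 2 alone. What part cell composition has in the level of Pde7b was not tested.

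Pde8b followed the same list more loosely, at an r of 0.85 (exact permutation p = 0.00675, adjusted p = 0.169) and a rho of 0.86 (exact permutation p = 0.0238, adjusted p = 0.397). Its r was 0.80 without the farthest libraries and 0.74 without CD replicate 4 and KD replicate 3. The relation thus kept its sign at a somewhat lower r, and it did not pass the adjustment. By gene, Pde8b had an r of 0.86 with Lamp5, 0.78 with Cux2, 0.75 with Cux1, 0.33 with Rasgrf2 and 0.07 with Calb1. The genes of the deep cortical layers gave an r of 0.40 with Pde7b and 0.43 with Pde8b. Neither of these passed (exact permutation p = 0.392 and 0.317, adjusted p = 0.67 and 0.609).

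The other relations of either kind with an unadjusted p under 0.05 did not pass adjustment. Pde7b had an r of -0.90 with the olfactory bulb list (exact permutation p = 0.0230, adjusted p = 0.288) and a rho of -0.68 (exact permutation p = 0.110, adjusted p = 0.548), and the r was 0.08 without CD replicate 4 and KD replicate 3, those farthest from the median of the list. Of the 4 genes of that list 0 had the higher mean in KD, and Eomes was at 0 in KD replicate 2. Pde2a had an r of -0.80 with the oligodendrocyte list (exact permutation p = 0.0161, adjusted p = 0.268) and a rho of -0.86 (exact permutation p = 0.0238, adjusted p = 0.397), and the r was -0.50 without CD replicate 3 and KD replicate 3 and -0.68 without CD replicate 4 and KD replicate 3. Summed oligodendrocyte markers ranged from 1227 to 4652 CPM in CD and from 1260 to 4573 CPM in KD, and 10 of 10 had the lower mean in KD. Pde10a, whose enzyme is a marker of the striatum, had an r of 0.70 with 10 striatal projection neuron markers (exact permutation p = 0.0581, adjusted p = 0.463) and a rho of 0.79 (exact permutation p = 0.0480, adjusted p = 0.400), and the r was 0.21 without KD replicate 2 and KD replicate 3, the farthest, but 0.68 without CD replicate 4 and KD replicate 3. Pde4b had an r of 0.30 with the same markers (exact permutation p = 0.507, adjusted p = 0.687) and a rho of 0.82 (exact permutation p = 0.0341, adjusted p = 0.400), and the r was 0.91 without the farthest libraries and 0.68 without CD replicate 4 and KD replicate 3. Those markers summed to 124 to 155 CPM in CD and 137 to 195 CPM in KD, 7 of the 10 had the higher mean in KD, and Isl1 was at 0 in KD replicate 2. Pde4a had an r of 0.64 with the oligodendrocyte list (exact permutation p = 0.116, adjusted p = 0.536) and a rho of 0.79 (exact permutation p = 0.0480, adjusted p = 0.400), and the r was 0.76 without CD replicate 3 and KD replicate 3 and 0.28 without CD replicate 4 and KD replicate 3. The parts of these cell types in the levels of Pde2a, Pde4a, Pde4b and Pde10a were not tested.

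**Figure D4:**
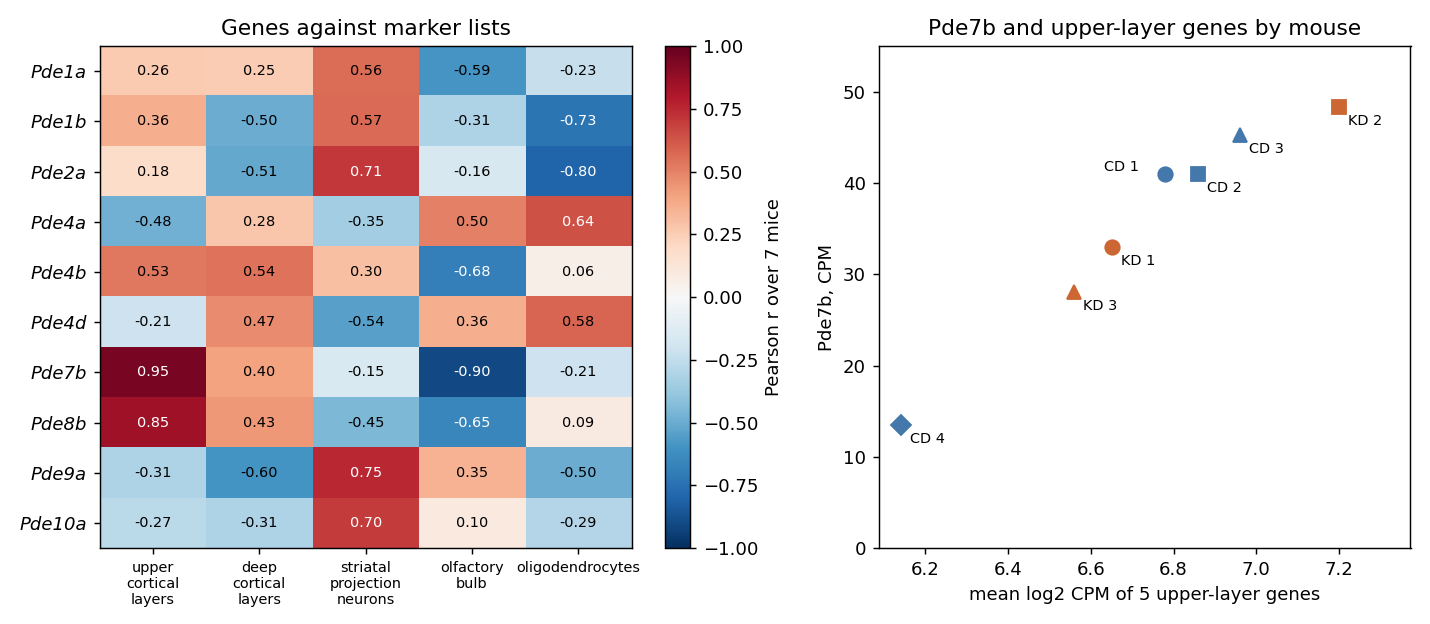
Left, Pearson's r over 7 mice between log2 CPM of each gene (rows) and the mean log2 CPM of 5 marker lists (columns), with red positive and blue negative. Right, Pde7b (CPM) against the mean log2 CPM of the 5 upper-layer genes, one point per mouse (CD blue, KD orange), rising from CD replicate 4 (13.5 CPM) to KD replicate 2 (48.3 CPM).

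Among the genes themselves, 45 pairs were correlated over the 7 libraries and 0 passed an adjusted p of 0.05, with 7 at an unadjusted p under 0.05. The strongest were Pde1b with Pde2a at an r of 0.92 (exact permutation p = 0.00714, adjusted p = 0.103) and a rho of 0.82 (exact permutation p = 0.0341, adjusted p = 0.384), and Pde1b with Pde4a at an r of -0.90 (exact permutation p = 0.00575, adjusted p = 0.103) and a rho of -0.96 (exact permutation p = 0.00278, adjusted p = 0.125). Without CD replicate 4 and KD replicate 3 these fell in size to 0.59 and -0.67. The pair Pde4a and Pde4d had an r of 0.85 (exact permutation p = 0.0147, adjusted p = 0.132) and a rho of 0.68 (exact permutation p = 0.110, adjusted p = 0.811), and its r was 0.41 without those libraries. Pde2a with Pde4d turned from an r of -0.79 to 0.42. Pde7b with Pde8b had an r of 0.80 (exact permutation p = 0.00278, adjusted p = 0.103) and a rho of 0.86 (exact permutation p = 0.0238, adjusted p = 0.357), and its r was 0.87 without those libraries.

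**Figure D5:**
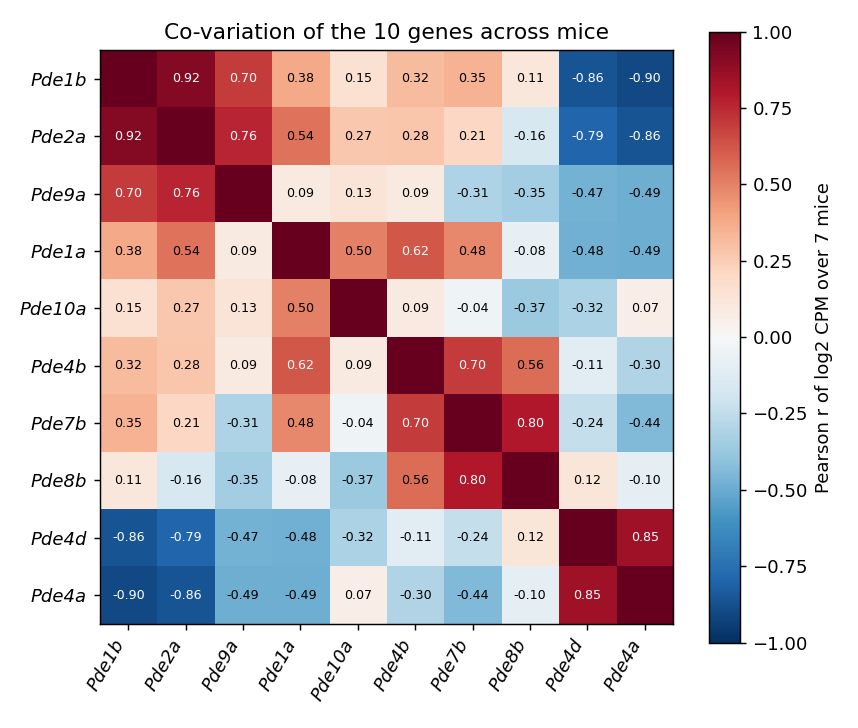
Pearson's r of log2 CPM over 7 mice between each pair of the 10 genes, red positive and blue negative. Pde1b and Pde2a (0.92) stand at one end and Pde4a and Pde4d (0.85) at the other, with negative values between these groups, and 0 of the 45 pairs passed adjustment.

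The genes most alike to each member were sought among 14140 tested genes with a mean CPM of 1 or more, by Pearson's r of log2 CPM over the 7 libraries, as a description. Pde7b was closest to Ptpn3 (0.993), Ngef (0.987) and Ppp3r1 (0.985), and Pde8b to Golga7b (0.988), Fbxo27 (0.986) and Pradc1 (0.973). Pde4a was closest to Homer3 (0.996), Mocs1 (0.983) and Oaf (0.979), Pde4d to Htra4 (0.978), Ttc9 (0.969) and Tshz3 (0.968), and Pde4b to Fam131a (0.980), Itpka (0.979) and Sqstm1 (0.979). Homer3 had a mean of 2.47 CPM and Htra4 of 1.46 CPM, so these rest on low levels. The closest to Pde2a were Prkg1 (0.984), which codes for a cGMP-dependent protein kinase, Rgl1 (0.982) and Napb (0.981). For Pde1a they were Gm15663 (0.980), Rgs9 (0.958) and Nfib (0.956), and for Pde1b Srsf9 (0.992), Fam76a (0.991) and Scn9a (0.990). Pde9a was closest to Rbmxl1 (0.983), Tmx4 (0.978) and Ppp1r2 (0.977), and Pde10a to Lrfn2 (0.969), Elfn2 (0.959) and Kif2a (0.934). With 7 points and so many genes, high values are found for every member, and they carry no test.

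The rest of the cyclic nucleotide pathway also held no gene past adjustment. Of 87 genes in 8 lists, 81 were tested, 51 were higher and 30 lower in KD, and the median log2 fold change was 0.029. Over all tested genes 49.04% were higher in KD. At an unadjusted p under 0.05 there were 3, against 3.19% of all genes, with 0 at 0.01 and 0 after adjustment. Pde3b, a cGMP-inhibited enzyme that acts downstream of insulin, had 20.6 to 26.8 CPM in CD and 27.7 to 33.7 CPM in KD, without overlap (log2 fold change 0.30, SE 0.13). Prkar2b, a regulatory subunit of protein kinase A, had 96.55 to 100.68 CPM in CD and 101.48 to 126.88 CPM in KD (0.22, SE 0.09). Akap12, which anchors that kinase, had 48.2 to 91.5 CPM in CD and 42.1 to 51.96 CPM in KD, with overlap (-0.45, SE 0.19). Its highest library was CD replicate 4 and its lowest KD replicate 3, while for Prkar2b CD replicate 4 was lowest and KD replicate 3 highest. Some fitted differences were larger but with wide errors, and of these the following were named after their values were seen. Nos1, a nitric oxide synthase, had a log2 fold change of 0.74 (SE 0.66), and the cGMP-dependent kinase genes Prkg1 and Prkg2 had 0.61 (SE 0.29) and 0.54 (SE 0.28). KD replicate 3 was the highest library for these genes, at 87.7 CPM for Nos1, 67.8 CPM for Prkg1 and 46.2 CPM for Prkg2. The lowest fold changes were those of Cnga2 (-0.91, SE 0.44), at under 1 CPM in every library, and Npr1 (-0.60, SE 0.52), with CD replicate 4 highest at 7.76 CPM.

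By role, the other 11 phosphodiesterase genes divided into 6 higher and 5 lower in KD (median 0.037). Their most abundant gene by CPM, Pde7a, had 28.4 to 38.2 CPM in CD and 32.3 to 36.1 CPM in KD. The 10 adenylyl cyclases, which make cAMP, had 4 higher and 6 lower (median -0.051), and Adcy1, a calcium-stimulated form, was at 805 CPM in KD replicate 3 against 1370 to 1782 CPM in the other libraries. G protein subunits that act on adenylyl cyclase had 6 higher and 3 lower (0.015), with Gnas at 899 to 1021 CPM in CD and 890 to 982 CPM in KD. Of 11 tested guanylyl cyclases, natriuretic peptide receptors and nitric oxide synthases, 6 were higher and 5 lower (0.047), with Gucy1a2, a subunit of the nitric oxide receptor, at 269 to 342 CPM in CD and 280 to 315 CPM in KD. These values overlapped between the diets for each gene named.

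The 9 subunits and inhibitors of protein kinase A were all higher in KD in the fitted values, against 49.04% of all tested genes. Their median log2 fold change was 0.058, and 1 had an unadjusted p under 0.05. The list pools subunits with the inhibitors Pkia, Pkib and Pkig. Several values were smaller than their SE: Pkig (0.01, SE 0.16), Prkar1a (0.02, SE 0.10), Prkar1b (0.02, SE 0.13), Prkar2a (0.05, SE 0.09) and Prkaca (0.06, SE 0.13). The largest was that of Pkib (0.45, SE 0.22). The count of 9 higher held with library-size, RLE and upper-quartile scaling alike. It did not hold without CD replicate 4 and KD replicate 3, where 4 were higher and 5 lower, nor without KD replicate 3 alone, where 6 were higher and 3 lower. Without CD replicate 1 or CD replicate 4, 7 were higher and 2 lower, and without CD replicate 3 or KD replicate 2, 8 were higher and 1 lower. Its catalytic subunit Prkacb had 825 to 1023 CPM in CD and 911 to 1146 CPM in KD, with overlap. Other effectors of cyclic nucleotides had 5 higher and 6 lower (-0.073), including Rapgef4, a cAMP-activated exchange factor, at 704 to 1293 CPM in CD and 752 to 1156 CPM in KD. Anchoring proteins had 9 higher and 3 lower (0.045), with Akap11 at 631 to 730 CPM in CD and 694 to 897 CPM in KD. The CREB family and its coactivators had 6 higher and 2 lower (0.024), and Creb1 had 114 to 137 CPM in CD and 121 to 133 CPM in KD. The lists were chosen with earlier results of these data known, so their counts carry no test of their own.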

How the data were processed

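Cortex RNA of 7 mice was sequenced from a stranded total RNA kit with paired reads. The authors checked reads with FASTQC, mapped them to mm10 with STAR and obtained gene counts by the HTSeq routine within that aligner; tool versions, annotation and strand setting are not given in the sources used here. The deposited values are raw counts, 1 file per mouse, with no normalization or pooling. Diets and replicate numbers came from the labels.

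CPM were computed from library totals (22272883 to 36614954 counts), so each gene described had at least 201 counts in a library. KD was compared with CD in edgeR 4.0.16 (R 4.3.3): filterByExpr, TMM scaling (factors 0.978 to 1.04), glmQLFit with robust=TRUE and glmQLFTest, no covariate, Benjamini-Hochberg adjustment over 15881 genes. Log2 CPM for correlations used a prior count of 0.5. CPM per kilobase used the union of exons of GENCODE M21 (GRCm38, the assembly of mm10), and a few older symbols were matched to current ones. The code of the fit was run on simulated counts with large differences put in, which does not measure its power for differences of the size seen here. Alternatives were RLE, upper-quartile and library-size scaling, other filters, robust=FALSE, DESeq2 1.42.0, limma-voom (limma 3.58.1), a replicate block, Xist as a covariate, a prior count of 2, longest transcript length and leaving out each library; the fit without CD replicate 4 and KD replicate 3, and leave-one-out for the correlations, were added after seeing the data.

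The genes described and all lists were chosen with earlier results of these data known. Named were the 10 genes, of each pathway list the genes with an unadjusted p under 0.05 and the one with the highest CPM, the 3 genes most alike to each of the 10, and marker genes where a result moves with their list. Replicates are separate mice. No library duplicated another.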

Additional observations from a re-analysis of the deposited data

Results flagged for a closer look

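Of 21 values examined in the 4 CD libraries (the 10 genes and the mean log2 CPM of 11 marker lists; the 3 KD libraries are too few), 2 had one library far from the rest by the ratio of its gap to the whole range; the bound was Dixon's 95% critical value for 4 samples. Chance gives about 1 in 20 such cases, or 1.05 here. The level of Pde7b in CD replicate 4 was 3.70 on the log2 CPM scale, while the remaining CD mice were at 5.36 to 5.50, which makes the gap 0.922 of the range. The mean of the oligodendrocyte list in CD replicate 3 was 5.93 log2 CPM while the remaining CD mice were at 7.71 to 7.87, a gap of 0.917 of the range.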

How the results depend on the processing

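The count of 51 genes with an unadjusted p of at most 0.01 became 182 with a replicate block, 205 with Xist as a covariate and 120 with DESeq2, and ran from 19 to 211 when one library was left out. The fit with a replicate block also left out CD replicate 4, which has no KD library of its number. Without that library and with no block the count was 33. The count of the 10 genes that were higher in KD, 5, became 1 without CD replicate 4 and KD replicate 3, and ran from 4 to 6 when one library was left out. The count of marker relations with an unadjusted p under 0.05, 4, ran from 4 to 7 when one library was left out. The causes were not tested. The other 63 of 75 values recomputed for these counts, the median, the order of levels and the count of genes without overlap stayed within 1.5 times of the main count or within the spread between mice.

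Of the 2 genes with an unadjusted p under 0.05, fewer than 2 passed in 13 of 18 alternatives, and 0 passed without CD replicate 1, CD replicate 4, KD replicate 2, KD replicate 3 or the pair of libraries apart. Deviations of same-numbered libraries of the diets correlated at 0.229, 0.176 and 0.089, and 1 of 3 KD libraries correlated best with its own number, so the numbers were not taken as pairs. With the replicate block, which leaves out CD replicate 4, 7 of the 9 protein kinase A genes were higher in KD. The same 7 were higher without CD replicate 4 and with no block. Adjusted calls under 0.05 numbered 0 in every fit except that with Xist, which gave 1 gene. The number of mice, 4 and 3, limits the precision of each difference, and depth was lowest for Pde9a, with 201 counts in KD replicate 1.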
